A study of Mus musculus with 16 samples.

Results

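The secreted modulators of Wnt signalling described here are 8 genes for soluble antagonists and 2 genes for receptors that go with them. They are Sfrp1, Sfrp2, Sfrp4, Sfrp5, Frzb, Dkk2, Dkk3 and Wif1, together with the Frizzled receptors Fzd1 and Fzd2, which are membrane proteins and are not secreted. The members were chosen by symbol, through the Ensembl identifiers of the deposited count table, and are 10 of its 55487 genes. All 10 were found, and 9 passed the filter on low counts. Dkk2 did not pass it. Levels are in CPM, which is a count relative to the scaled total of its library.

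RNA was sequenced from the heart apex of 16 mice, with 4 mice in each of 4 groups, to ask how the heart responds to pressure overload when the long noncoding RNA Cardinal (annotated in mouse as Gm12295) is missing. Ctrl sham mice were WT and had the operation without the ligation, and Ctrl TAC mice were WT and had transverse aortic constriction (TAC), a ligature around the aorta that puts the left ventricle under pressure. KO sham and KO TAC mice had a whole-body knockout (KO) of Cardinal and the same 2 operations. Hearts were taken 4 weeks after surgery. According to the study's methods the mice were male. The age of the mice and their strain were not given in the sources used here. The knockout removed Cardinal from every cell of the mouse and not from the cardiomyocyte alone.

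Library totals ranged from 53169437 to 79404714 counts. Cardinal was read at 3.24 to 3.86 CPM in Ctrl sham hearts, at 2.69 to 8.02 CPM in Ctrl TAC hearts and at 0.297 to 0.553 CPM in KO sham hearts. In KO TAC hearts it was at 0.371, 0.276 and 0.368 CPM in libraries 1 to 3 and at 4.55 CPM in the library labelled KO TAC 4, which goes against that label. Fold changes of KO against Ctrl under TAC are therefore also given without that library for the members called there and for Sfrp5. For Sfrp5 alone those of TAC in KO hearts and of the interaction are given as well. Other fold changes also moved without it, such as the log2 fold change of Wif1 in KO against Ctrl under TAC, from −0.50 to −0.65. That of Sfrp2 under TAC in KO hearts went from 2.55 to 2.69. The summed level of 8 cardiomyocyte marker genes was 39108 CPM or more in every library, as the labelled tissue would have. The libraries of the KO TAC group also differ in the run of numbers of the mice: the lowest run holds 3 Ctrl TAC mice and the library labelled KO TAC 4, and the labels do not say what the runs mean. Mitochondrial genes held 26.8% to 28.8% of counts in Ctrl sham, 27.1% to 28.4% in KO sham, 21.9% to 27.0% in Ctrl TAC and 23.4% to 25.1% in KO TAC libraries, so this share moved with surgery, and its part in the results was not tested.

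Wnt proteins are secreted, lipid-modified ligands that bind Frizzled receptors and LRP coreceptors at the cell surface, and in the canonical branch of the pathway this stabilises beta-catenin, which then drives transcription with TCF/LEF factors. Secreted frizzled-related proteins (sFRPs) carry a cysteine-rich domain like that of Frizzled and bind Wnt proteins outside the cell, Wif1 binds Wnt proteins through a domain of its own, and Dickkopf proteins such as Dkk2 bind the LRP coreceptors. Dkk3 is a divergent Dickkopf protein whose part in Wnt signalling is less settled, and Frzb is also known as sFRP3. In the adult heart the pathway is known for low activity at rest and for renewed activity after injury or overload, in fibroblasts as well as in cardiomyocytes.

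Promoter windows, from 250 bases before to 50 bases after the start of the gene, were at hand in RefSeq (GRCm38.p6) for 6 of the 10 members, Sfrp2, Sfrp5, Frzb, Dkk2, Wif1 and Fzd1. The 250 bases before the start are shown for Sfrp2 and Sfrp5, since these related genes moved in opposite directions under TAC and since their RefSeq starts are at the GENCODE starts. Sfrp2 lies at chr3:83766071-83766320 on the plus strand and Sfrp5 at chr19:42202253-42202502 on the minus strand, and both are written 5′ to 3′ with the SMAD core GTCTG in capitals.
Sfrp2: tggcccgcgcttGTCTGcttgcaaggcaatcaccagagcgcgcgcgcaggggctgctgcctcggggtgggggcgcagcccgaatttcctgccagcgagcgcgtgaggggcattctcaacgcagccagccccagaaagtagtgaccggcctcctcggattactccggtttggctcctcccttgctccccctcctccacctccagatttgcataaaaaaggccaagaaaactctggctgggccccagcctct
Sfrp5: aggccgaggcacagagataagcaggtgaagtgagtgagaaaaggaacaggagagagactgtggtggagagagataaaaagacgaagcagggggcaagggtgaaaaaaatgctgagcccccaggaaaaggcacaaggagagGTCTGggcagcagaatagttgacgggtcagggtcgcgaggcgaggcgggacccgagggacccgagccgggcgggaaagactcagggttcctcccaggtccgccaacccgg
The windows of Sfrp2 and Sfrp5 held 1 GTCTG each, at positions −238 and −110 from the start, and such a match on either strand occurred in 49.6% of all 32851 RefSeq windows. Frzb had none, and Fzd1 had 2. The core of TCF/LEF sites (CTTTGAT, in 3.73% of all windows), that of TEAD sites (GGAATG, 14.7%) and that of AP-1 sites (TGANTCA, 7.81%) had no match on either strand in any of the 6 windows. None of the 5 motifs searched contains another. A TATAAA was present in Dkk2, Wif1 and Fzd1 and, at any position on either strand, in 13.6% of all windows. It lay at −32 in Dkk2 and −202 in Fzd1 on the strand of the gene, and at −232 on the opposite strand in Wif1. The 6 windows were 54% to 66% G or C with 11 to 25 CpG dinucleotides, where the median window had 52.7% and 7.

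Per length of transcript, Sfrp1 was the highest of the 10 members in sham hearts, at 2.39 ± 0.153 RPKM (CPM per kilobase of exon, mean ± SD, n = 4) in Ctrl sham and 2.19 ± 0.211 RPKM in KO sham, and its libraries were above all those of Fzd1, the next member, in both. Fzd1 followed at 1.40 ± 0.212 RPKM and Frzb at 1.02 ± 0.189 RPKM in Ctrl sham, where their libraries overlapped. Sfrp2, Dkk3, Fzd2 and Wif1 lay between 0.560 and 0.745 RPKM in Ctrl sham hearts, each overlapping the next. Sfrp5 was lower at 0.298 ± 0.0953 RPKM, and Sfrp4 at 0.0724 ± 0.0300 RPKM and Dkk2 at 0.0243 ± 0.0192 RPKM were lower still. Under TAC the order changed. In Ctrl TAC hearts Frzb had the highest mean at 3.36 ± 0.882 RPKM, overlapping Sfrp1 at 3.24 ± 0.422 RPKM. In KO TAC hearts Sfrp1, Frzb, Sfrp2 and Dkk3, at 5.81, 5.20, 4.69 and 4.34 RPKM, each overlapped the next and all 4 means were above that of Fzd1 at 2.64 RPKM.

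**Figure D1:**
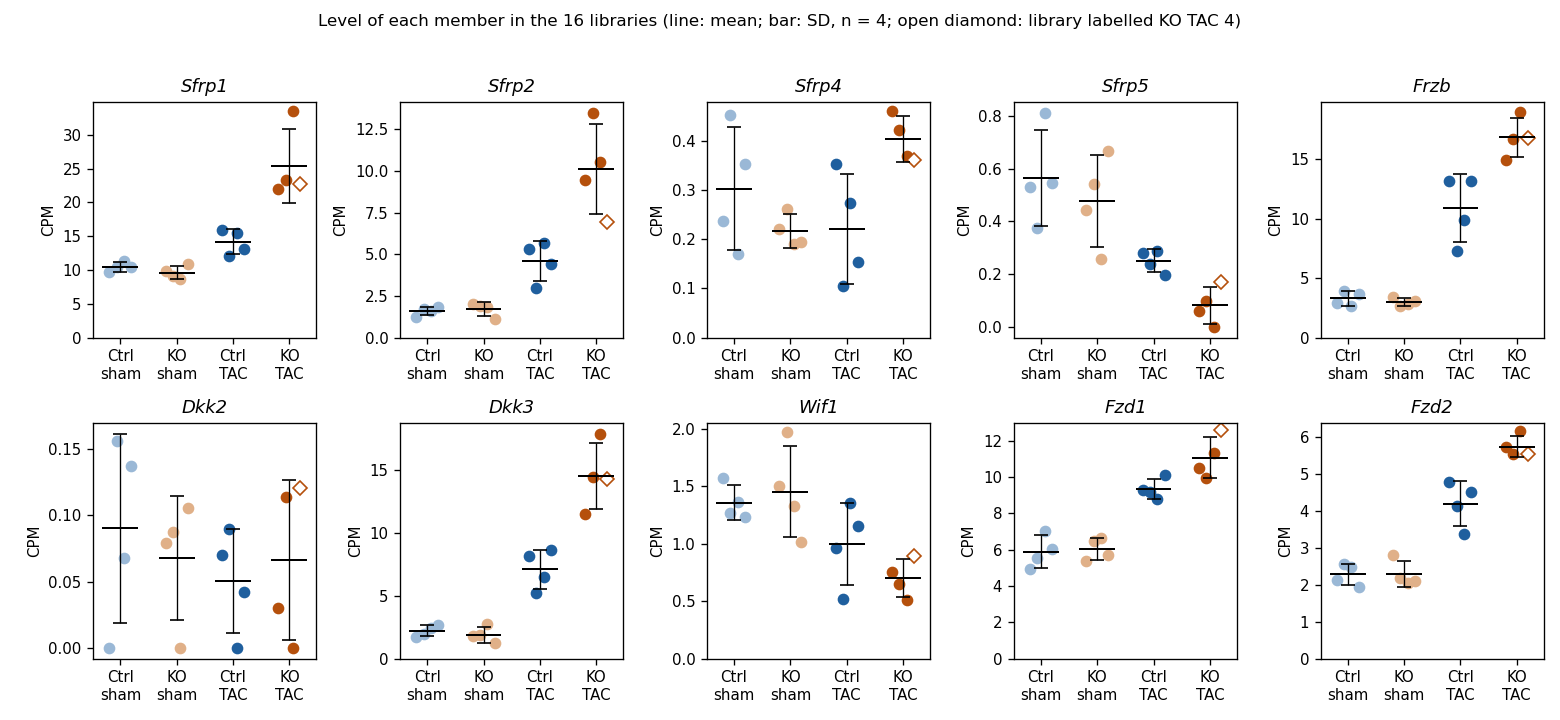
CPM of the 10 members in each of the 16 libraries by group, with the mean and SD of the 4 libraries. The open diamond is the library labelled KO TAC 4. Sfrp1, Sfrp2, Frzb and Dkk3 are higher in all 4 KO TAC libraries than in any Ctrl TAC library, and the sham groups overlap for all members.

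Pressure overload raised most of these genes in control hearts. In Ctrl hearts 6 of the 9 members tested were called higher under TAC than sham (Sfrp1, Sfrp2, Frzb, Dkk3, Fzd1 and Fzd2; edgeR quasi-likelihood test, adjusted p under 0.05) and 0 lower, where 10.4% of all genes tested were called higher and 9.6% lower. In KO hearts the same 6 were called higher and 2 lower (Sfrp5 and Wif1), beside 17.8% and 16.5% of all genes. The median log2 fold change of the 9 members was 0.66 in Ctrl and 1.33 in KO hearts, and that of all genes was 0.0043 and −0.0039. TAC and sham libraries did not overlap for 7 of the 9 members in Ctrl hearts (20.5% of all genes) and for 9 of 9 in KO hearts (34.6% of all genes). In RNA from whole tissue, fewer or more cells of a type and less or more RNA per cell cannot be told apart. Both comparisons are shown in the plot of fold changes.

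**Figure D2:**
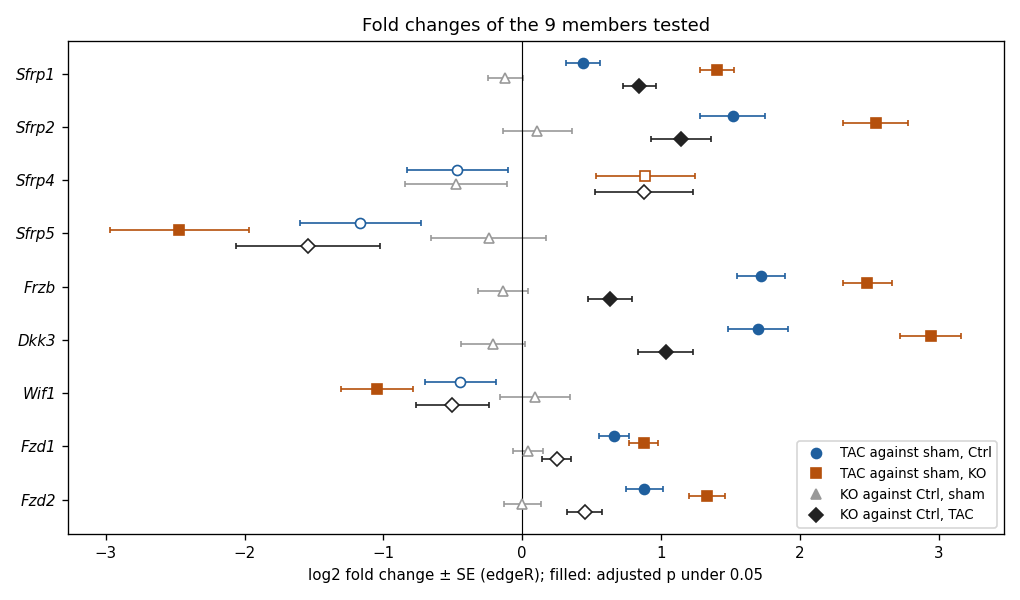
log2 fold changes with SE from edgeR for the 9 members tested, for TAC against sham in each genotype and KO against Ctrl in each operation; filled symbols have an adjusted p under 0.05. The squares (TAC in KO hearts) lie farther from 0 than the circles (TAC in Ctrl hearts) for all 9 members, and for Sfrp4 they lie on the other side of 0.

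Sfrp1 encodes a secreted Wnt-binding sFRP and lies on chromosome 8 at 23411502 to 23449632 in GRCm38 on the plus strand. It was read at 9.62, 10.4, 11.3 and 10.4 CPM in the Ctrl sham libraries and at 15.96, 12.1, 15.4 and 13.1 CPM in the Ctrl TAC libraries. In KO hearts it was at 9.77, 9.08, 8.71 and 10.8 CPM after sham surgery and at 22.02, 23.4, 33.5 and 22.7 CPM after TAC. Every TAC library was above every sham library, and every KO TAC library was above every Ctrl TAC library, with KO TAC 3 the highest. The log2 fold change under TAC was 0.44 ± 0.12 (SE) in Ctrl hearts (adjusted p = 0.0176) and 1.41 ± 0.12 in KO hearts (adjusted p = 1.97e-07). Without Ctrl sham 1 or Ctrl TAC 1 the smaller rise in Ctrl hearts had an adjusted p of 0.0595 or 0.0579.

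Sfrp2, on chromosome 3 at 83766321 to 83774316 on the plus strand, encodes an sFRP that fibroblasts secrete in injured tissue. Its Ctrl libraries read 1.24, 1.73, 1.62 and 1.82 CPM after sham surgery and 5.30, 2.94, 5.66 and 4.41 CPM after TAC. Its KO libraries read 2.04, 1.89, 1.82 and 1.12 CPM after sham surgery and 9.44, 13.5, 10.5 and 6.96 CPM after TAC. The 4 KO TAC libraries were the highest of all 16, the library labelled KO TAC 4 being the lowest of them. The rise was 1.52 ± 0.24 on the log2 scale in Ctrl hearts (adjusted p = 0.000220) and 2.55 ± 0.23 in KO hearts (adjusted p = 4.07e-07). Of its exons, 347 bases are shared with Gm26771 on the opposite strand, whose own count was 0 to 2 in every library, and whether counting used the strand was not stated, so counts over these bases are uncertain.

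Frzb lies on chromosome 2 at 80411970 to 80447625 on the minus strand and encodes an antagonist first isolated from cartilage. Ctrl sham libraries were at 2.92, 3.94, 2.65 and 3.70 CPM, and Ctrl TAC libraries at 13.1, 7.25, 9.91 and 13.2 CPM. The KO libraries were at 3.40, 2.62, 2.86 and 3.11 CPM after sham surgery and at 14.9, 16.7, 19.0 and 16.8 CPM after TAC. Sham and TAC libraries were far apart in both genotypes, and Ctrl TAC 2 was the lowest TAC library. The log2 fold change under TAC was 1.72 ± 0.17 in Ctrl (adjusted p = 2.95e-06) and 2.49 ± 0.17 in KO hearts (adjusted p = 2.53e-08), so that Frzb had the smallest adjusted p of the members in both comparisons.

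Dkk3, on chromosome 7 at 112116017 to 112159057 on the minus strand, had the largest fold change of the members in KO hearts. Ctrl sham libraries read 1.75, 1.97, 2.42 and 2.70 CPM and Ctrl TAC libraries 8.15, 5.21, 6.49 and 8.63 CPM. After sham surgery the KO libraries read 1.79, 1.85, 2.72 and 1.21 CPM, and after TAC 11.5, 14.5, 17.9 and 14.3 CPM. The 3 levels of sham, Ctrl TAC and KO TAC were separate with no overlap. On the log2 scale Dkk3 rose by 1.70 ± 0.22 in Ctrl hearts (adjusted p = 4.23e-05) and by 2.94 ± 0.22 in KO hearts (adjusted p = 6.77e-08). The mean CPM under TAC was 322% of that in sham hearts in Ctrl and 770% in KO mice. Its relative Dkk2, on chromosome 3 at 132085292 to 132180304 on the plus strand, had 0 to 10 counts in any library, with 21 and 16 counts summed over the sham groups (Ctrl and KO) and 13 and 19 over the TAC groups. Dkk2 did not pass the filter on low counts, so its differences between groups were not tested.

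Sfrp5 and Wif1 went the other way. Sfrp5, on chromosome 19 at 42197971 to 42202252 on the minus strand, encodes an sFRP known as an adipokine. It was read at 0.529, 0.375, 0.811 and 0.548 CPM in Ctrl sham and at 0.282, 0.239, 0.289 and 0.195 CPM in Ctrl TAC libraries. KO sham libraries were at 0.443, 0.542, 0.258 and 0.668 CPM. KO TAC libraries had 4, 6, 0 and 14 counts, which is 0.0594, 0.0974, 0 and 0.169 CPM, and the count of 0 allows up to 0.0460 CPM (3 counts, counting error only). The groups thus did not overlap between sham and TAC in either genotype, and the library labelled KO TAC 4 was the highest of its group. The log2 fold change under TAC was −1.17 ± 0.44 in Ctrl hearts (adjusted p = 0.0685, not called) and −2.47 ± 0.50 in KO hearts (adjusted p = 0.000809). The change in KO hearts was −3.16 (adjusted p = 0.000393) when the library labelled KO TAC 4 was left out. In Ctrl hearts the DESeq2 test (adjusted p = 0.0278), the fit to the 8 libraries compared (0.0218) and the omission of KO TAC 3 (0.0238) called the fall. The 4 adipocyte marker genes summed to 1.63 CPM or less in every library.

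Wif1 lies on chromosome 10 at 121033960 to 121100650 on the plus strand. Its libraries read 1.57, 1.27, 1.37 and 1.23 CPM in Ctrl sham and 0.968, 0.523, 1.35 and 1.16 CPM in Ctrl TAC hearts, which overlap. In KO hearts they read 1.50, 1.98, 1.33 and 1.02 CPM after sham surgery and 0.757, 0.650, 0.506 and 0.892 CPM after TAC, with no overlap. The log2 fold change was −0.44 ± 0.26 in Ctrl (adjusted p = 0.250) and −1.04 ± 0.26 in KO hearts (adjusted p = 0.00436), and with a term for the mouse numbers that start alike in 3 of the 4 KO sham libraries and 1 Ctrl sham library it was −0.86 in KO hearts and not called (adjusted p = 0.0889). Sfrp4, an sFRP on chromosome 13 at 19623104 to 19632994 on the plus strand, was low throughout, at 0.169 to 0.453 CPM in Ctrl sham and 0.105 to 0.352 CPM in Ctrl TAC libraries. KO sham libraries were at 0.189 to 0.262 CPM and KO TAC libraries at 0.362 to 0.460 CPM, so sham and TAC libraries overlapped in Ctrl hearts and not in KO hearts. Its log2 fold change was −0.47 ± 0.36 in Ctrl (adjusted p = 0.414) and 0.89 ± 0.36 in KO hearts (adjusted p = 0.0625), and the latter was called with the run of mouse numbers as a term (0.0340), in the fit to 8 libraries (0.0167) and without Ctrl TAC 2 (0.0406).

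Both receptors rose under TAC in both genotypes, by less than Frzb, Sfrp2 or Dkk3. Fzd1, on chromosome 5 at 4753839 to 4758035 on the minus strand, was read at 4.94, 5.55, 7.05 and 6.02 CPM in Ctrl sham and 9.27, 9.14, 8.76 and 10.1 CPM in Ctrl TAC libraries. KO sham libraries were at 5.36, 6.49, 6.63 and 5.69 CPM and KO TAC libraries at 10.5, 9.92, 11.3 and 12.6 CPM. TAC and sham libraries were separate, whereas the TAC groups of the genotypes overlapped. The log2 fold change under TAC was 0.66 ± 0.11 in Ctrl (adjusted p = 0.000222) and 0.87 ± 0.11 in KO hearts (adjusted p = 5.06e-06).

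Fzd2, on chromosome 11 at 102604396 to 102608058 on the plus strand, read 2.13, 2.55, 2.48 and 1.94 CPM in Ctrl sham and 4.77, 4.14, 3.38 and 4.50 CPM in Ctrl TAC libraries. It read 2.80, 2.17, 2.05 and 2.09 CPM in KO sham and 5.73, 5.54, 6.15 and 5.52 CPM in KO TAC libraries. All KO TAC libraries were above all Ctrl TAC libraries. On the log2 scale the rise was 0.88 ± 0.13 in Ctrl (adjusted p = 0.000108) and 1.33 ± 0.13 in KO hearts (adjusted p = 4.39e-07).

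Between the genotypes, no difference in the members was called in sham hearts. KO against Ctrl after sham surgery had 0 of 9 members called by edgeR, 0 of them at an unadjusted p under 0.05, beside 0% of all 18275 genes (479 of them at an unadjusted p under 0.05). Cardinal, the deleted gene, was thus not called either, though it was at 3.24 to 3.86 CPM in Ctrl sham and 0.297 to 0.553 CPM in KO sham libraries. The lack of a call in this comparison therefore does not show that the members were unchanged. The log2 fold changes of the 9 members lay between −0.48 ± 0.37 for Sfrp4 and 0.11 ± 0.25 for Sfrp2. DESeq2 called 0 members as well.

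Under TAC, 4 of the 9 members were called higher in KO than in Ctrl hearts, and 0 lower, beside 1.36% of all genes higher and 1.32% lower. They were Sfrp1 at 25.4 ± 5.44 against 14.2 ± 1.85 CPM (mean ± SD, n = 4 each; log2 fold change 0.84 ± 0.12, adjusted p = 0.00731), Sfrp2 at 10.1 ± 2.71 against 4.58 ± 1.21 CPM (1.14 ± 0.22, adjusted p = 0.0154), Dkk3 at 14.6 ± 2.61 against 7.12 ± 1.57 CPM (1.03 ± 0.20, adjusted p = 0.0164) and Frzb at 16.8 ± 1.67 against 10.9 ± 2.86 CPM (0.63 ± 0.16, adjusted p = 0.0436). Sfrp1 had the fifth place among all 18275 genes by p. KO TAC and Ctrl TAC libraries did not overlap for 7 of 9 members, as for 10.5% of all genes. Besides the 4 called genes these were Fzd2 (0.45 ± 0.13, adjusted p = 0.0586), Sfrp4 (0.88 ± 0.35, adjusted p = 0.184) and Sfrp5 (−1.54 ± 0.52, adjusted p = 0.114). Fzd1 (0.25 ± 0.10, adjusted p = 0.200) and Wif1 (−0.50 ± 0.26, adjusted p = 0.318) overlapped. DESeq2 called 6 members, with Fzd2 higher (adjusted p = 0.0115) and Sfrp5 lower (adjusted p = 0.0309) besides the 4. The adjusted p of DESeq2 was smaller than that of edgeR for each member tested, at 9.82e-08 for Sfrp1. The share of all genes that DESeq2 called is not given here. Without the library labelled KO TAC 4, Sfrp5 was at −2.23 (adjusted p = 0.0509).

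How firmly the 4 calls stood differed between the genes. Without the library labelled KO TAC 4, 3 of the 4 were called, Sfrp1 at 0.90 (adjusted p = 0.00606), Sfrp2 at 1.29 (0.00848) and Dkk3 at 1.04 (0.0256), and Frzb at 0.63 was not (0.0724). Sfrp1 was called whichever of the 16 libraries was left out. Sfrp2 was not called without Ctrl TAC 2 (0.0509) or KO TAC 3 (0.0545), nor Dkk3 without Ctrl TAC 2 (0.0620) or KO TAC 3 (0.0601), and without either library Sfrp1 was the 1 member called. Frzb kept its call in 5 of the 16 omissions, those of Ctrl sham 1, 2 and 3 and of Ctrl TAC 1 and 4, and had its highest adjusted p, 0.129, without KO TAC 3. With the run of mouse numbers as a model term 0 members were called, and the log2 fold changes were 0.73 for Sfrp1 (adjusted p = 0.0509), 0.97 for Dkk3 (0.104), 0.87 for Sfrp2 (0.114) and 0.55 for Frzb (0.199).

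Within the lowest run of mouse numbers, which holds 3 Ctrl TAC libraries and the library labelled KO TAC 4, the KO minus Ctrl difference in log2 CPM was 0.75 for Sfrp1, 0.73 for Sfrp2, 1.11 for Dkk3 and 0.78 for Frzb. Among the other TAC mice, with 3 KO libraries and 1 Ctrl library, it was 0.69 for Sfrp1, 1.05 for Sfrp2, 0.82 for Dkk3 and 0.35 for Frzb. Each run has a group of 1 library, so these values have no test. Every KO TAC library was above every Ctrl TAC library for these 4 genes, so the sign in either run was fixed beforehand. The KO library of the lowest run is the one whose Cardinal level goes against its label. The adjusted p of the 4 genes under all settings is shown in the plot of adjusted p by setting.

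**Figure D3:**
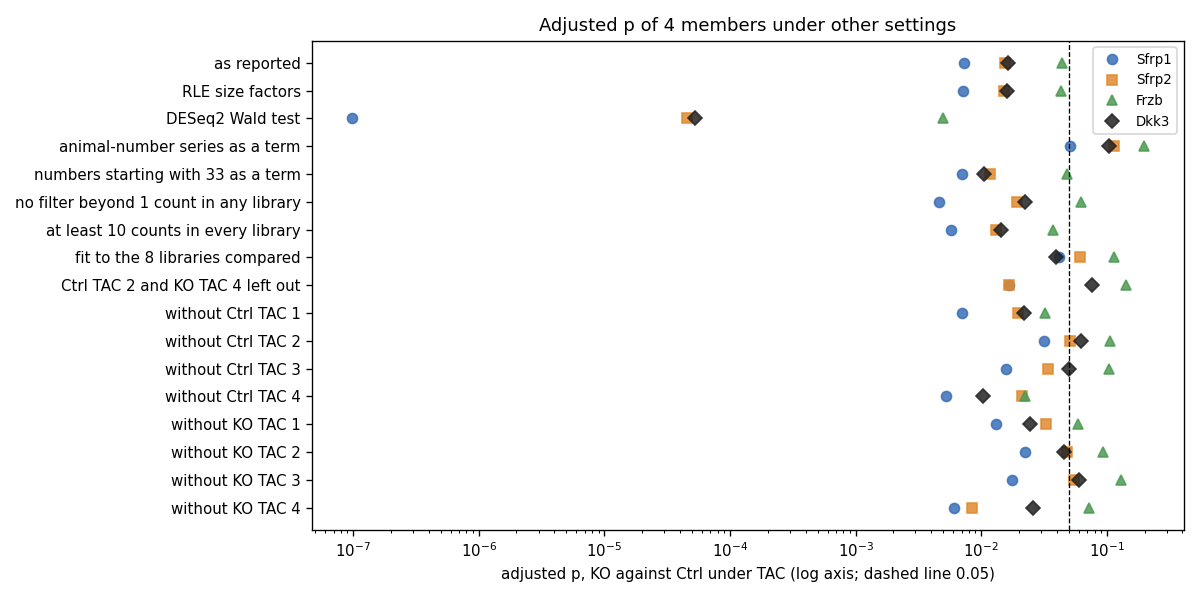
Adjusted p for KO against Ctrl under TAC (log axis, dashed line at 0.05) of Sfrp1, Sfrp2, Frzb and Dkk3 in the fit as reported, in the other settings, and with each TAC library left out. Sfrp1 lies left of the line in all settings but the one with the run of mouse numbers as a term (0.0509), while Frzb lies right of it in most.

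The test of the difference itself, the genotype by surgery interaction, called 0 of the 9 members in edgeR, beside 0.0109% of all genes (2 genes). An unadjusted p under 0.05 was found for 6 members and for 2024 of all 18275 genes. The interaction of Sfrp1 was 0.97 ± 0.17 on the log2 scale (adjusted p = 0.0980), that of Dkk3 1.25 ± 0.30 (adjusted p = 0.191), that of Sfrp2 1.03 ± 0.33 (adjusted p = 0.267) and that of Frzb 0.77 ± 0.24 (adjusted p = 0.260). Interactions of Sfrp4 (1.35 ± 0.51, adjusted p = 0.336) and Sfrp5 (−1.30 ± 0.66, adjusted p = 0.483) were as large with wider errors, and that of Sfrp5 was −1.99 without the library labelled KO TAC 4 (adjusted p = 0.298). DESeq2 called 2 members, Sfrp1 (adjusted p = 0.000403) and Dkk3 (adjusted p = 0.00806). The share of all genes that DESeq2 called in the interaction is not given here, so these calls have no background beside them. A larger TAC response of these genes in KO than in Ctrl hearts was thus past the threshold in DESeq2 and not in the edgeR test.

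The makeup of the sFRP transcripts shifted under TAC. Of the summed RPKM of the 5 sFRP genes, Sfrp1 held 52.9 ± 2.84% in Ctrl sham and 51.9 ± 3.29% in KO sham hearts, and 36.8 ± 4.28% and 36.6 ± 4.11% after TAC. Frzb went from 22.5 ± 3.46% to 37.4 ± 5.16% in Ctrl and from 21.9 ± 1.54% to 33.1 ± 3.18% in KO hearts. Sfrp2 went from 16.4 ± 1.50% to 23.6 ± 3.00% in Ctrl and from 19.0 ± 4.68% to 29.5 ± 5.94% in KO hearts. For these 3 genes and in both genotypes the sham and TAC libraries did not overlap in share. Sfrp5 went from 6.61 ± 2.099% to 1.52 ± 0.342% of the sum in Ctrl and from 5.91 ± 2.02% to 0.292 ± 0.267% in KO hearts, and no share was tested. The sum itself was 4.52 ± 0.343 and 4.22 ± 0.269 RPKM in Ctrl and KO sham hearts, 8.91 ± 1.66 RPKM in Ctrl TAC and 15.8 ± 2.25 RPKM in KO TAC hearts.

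Set against the receptors, the summed RPKM of the 8 soluble members was 2.87 ± 0.253 times that of Fzd1 plus Fzd2 in Ctrl sham and 2.62 ± 0.141 times in KO sham hearts. The ratio was 3.41 ± 0.644 in Ctrl TAC hearts, with libraries from 2.51 to 3.97, and 4.89 ± 0.742 in KO TAC hearts, with libraries from 4.10 to 5.55. Ctrl TAC and Ctrl sham libraries overlapped, and KO TAC libraries were above all others, the lowest of them being the library labelled KO TAC 4. The ratio is a description over genes chosen together and has no test. It counts Dkk3 with the antagonists.

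**Figure D4:**
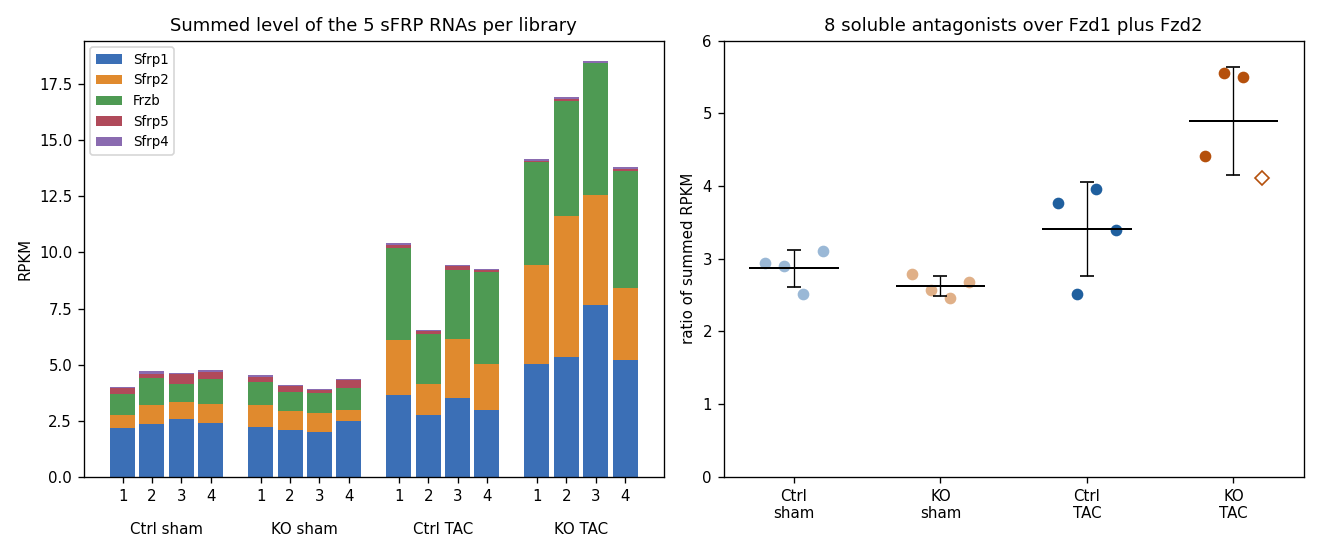
Left, stacked RPKM of Sfrp1, Sfrp2, Frzb, Sfrp5 and Sfrp4 in each library; right, the ratio of summed RPKM of the 8 soluble members to Fzd1 plus Fzd2 per library with mean and SD, the open diamond being the library labelled KO TAC 4. The stacks are tallest in KO TAC, where the ratio runs from 4.10 to 5.55, and Sfrp5 is hardly visible there.

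Over the 16 libraries, the members that rose moved together as the 4 groups did. Frzb and Dkk3 had the highest correlation of log2 CPM between members (Pearson r = 0.97), followed by Sfrp2 and Dkk3 (r = 0.96), and within groups these were 0.41 and 0.57. Among the members called higher under TAC, r within groups ran from −0.081 for Frzb and Fzd1 to 0.57 for Sfrp2 and Dkk3. It was 0.018 for Fzd1 and Fzd2, so several pairs hardly moved together within groups. Sfrp5 and Wif1 had r = 0.75 with each other (0.33 within groups) and negative r with Sfrp1, Sfrp2, Frzb, Dkk3, Fzd1 and Fzd2. Within groups r was positive between Wif1 and Sfrp2 (0.37), Dkk3 (0.21), Frzb (0.18) and Fzd1 (0.11) and between Sfrp5 and Fzd1 (0.089), so the negative values over all libraries followed the groups for these pairs. These values describe 16 libraries that share the groups and the sequencing. Among 10209 genes of at least 2 in average log2 CPM, the nearest in pattern to Sfrp2 were Aspn (r = 0.98) and Dap (r = 0.98), those nearest to Frzb were Nppa and Ltbp2 (both r = 0.99), and those nearest to Dkk3 were Pmepa1 and Dio2 (both r = 0.99). Fzd1 was nearest to Vcan (r = 0.98) and Fn1 (r = 0.97), and Fzd2 to Rtn4 and Dpysl3 (both r = 0.98). Sfrp1 was nearest to Cyb5r3 (r = 0.95) and Serping1 (r = 0.94), but within groups these were at 0.27 and 0.35. Sfrp5 was nearest to Dkc1 and Wdr5 (r = 0.92 and 0.91), Wif1 to Tnnt1 and Tmem70 (both r = 0.89), and Sfrp4 to Rarres2 and Zscan21 (r = 0.87 and 0.85).

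Summed levels of fibroblast markers moved with the members that rose. The 12 fibroblast markers summed to 1386 to 1600 CPM in Ctrl sham, 1462 to 1534 CPM in KO sham, 1822 to 2325 CPM in Ctrl TAC and 2382 to 2660 CPM in KO TAC libraries. Under TAC 6 of 12 were called higher in Ctrl hearts and 9 of 12 in KO hearts, beside 10.4% and 17.8% of all genes. The list did not rise as a whole. Gsn and Dpt had log2 fold changes of −0.093 and −0.0054 in Ctrl hearts and −0.0074 and −0.011 in KO hearts. Ddr2 was at 0.024 in Ctrl and 0.10 in KO hearts, and none of these genes was called. The log2 fold change was above 0 for 10 of the 12 in each genotype. The 9 markers of activated fibroblasts include periostin (Postn) and cartilage oligomeric matrix protein (Comp). They summed to 76.4 to 137 CPM in Ctrl sham, 88.4 to 108 CPM in KO sham, 264 to 479 CPM in Ctrl TAC and 722 to 889 CPM in KO TAC libraries. Postn alone had a mean of 413 CPM in KO TAC hearts, where the mean sum was 784 CPM. The log2 fold change under TAC was above 0 for 7 of the 9 in Ctrl hearts and for all 9 in KO hearts. Acta2 and Chad had lower means in Ctrl TAC than in Ctrl sham hearts, at 44.9 against 59.3 CPM and 0.140 against 0.211 CPM, and were not called lower. Of these 9, 6 were called higher under TAC in Ctrl hearts, 7 in KO hearts and 6 in KO against Ctrl TAC hearts. In the last, 1 of the 12 general markers and 1.36% of all genes were called higher. In no group was a marker of these 2 lists at 0 in all libraries. The part of fibroblast number or state in the levels of the Wnt modulators was not tested.

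Other genes of the pathway were called in both directions. Of 110 other Wnt genes listed from general knowledge, 89 were tested, and 11 were called higher and 8 lower under TAC in Ctrl hearts (21.3%), and 25 higher and 14 lower in KO hearts (43.8%), with median log2 fold changes of 0.02 and 0.07. Of all genes tested, 10.4% were called higher and 9.6% lower in Ctrl hearts, and 34.3% in either direction in KO hearts, so the share of the Wnt genes in Ctrl hearts was near that of all genes. Among 9 Wnt ligands tested, 1 was called lower in Ctrl hearts, and 2 higher and 1 lower in KO hearts, where Wnt5b, a ligand of the noncanonical branch, went from 2.03 ± 0.377 to 3.14 ± 0.622 CPM (log2 fold change 0.63 ± 0.20, adjusted p = 0.0196). Of the 2 genes for Wnt secretion, Wls, which carries Wnt proteins to the cell surface, was called in KO hearts at 0.18 ± 0.06 (adjusted p = 0.0289). Of 5 other secreted modulators, 1 was called higher in Ctrl hearts and 3 higher and 1 lower in KO hearts, with Igfbp4 at 0.31 ± 0.07 (adjusted p = 0.00251).

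Of all genes tested, 20% were called in either direction under TAC in Ctrl hearts and 34.3% in KO hearts. Among 18 other receptors and coreceptors, 2 were called higher and 1 lower in Ctrl hearts (16.7%). In KO hearts 5 of them were called higher and 2 lower (38.9%), so both shares were near those of all genes. Kremen1, a receptor for Dickkopf proteins, went from 132 ± 4.01 to 206 ± 20.2 CPM under TAC in KO hearts (0.64 ± 0.08, adjusted p = 8.32e-06). Of 4 genes for receptor turnover and membrane inhibitors, Apcdd1, a membrane-bound Wnt inhibitor, was the 1 called in each genotype, with 1.24 ± 0.13 in KO hearts (adjusted p = 1.13e-06). In the cytoplasmic pathway 1 of 17 was called higher and 2 lower in Ctrl hearts (17.6%), and 4 higher and 2 lower in KO hearts (35.3%), again near all genes. Ctnnbip1, an inhibitor of beta-catenin, was at 0.31 ± 0.07 in KO hearts (adjusted p = 0.00189). Of 13 genes of the nuclear pathway 2 were called lower in Ctrl hearts (15.4%) and 5 in KO hearts (38.5%), and 0 were called higher. The log2 fold change was above 0 for 4 of them in each genotype. The corepressor Tle2 was at −0.46 ± 0.08 in KO hearts (adjusted p = 0.000128). Of 11 planar polarity genes 2 were called lower in Ctrl hearts (18.2%), and 1 higher and 3 lower in KO hearts (36.4%), near all genes as well. The cadherin Celsr2 was at −1.14 ± 0.13 in KO hearts (adjusted p = 3.07e-06).

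Of the genes widely used as readouts of Wnt signalling, 10 were tested, and 6 of them were called higher in Ctrl hearts and 8 in KO hearts and 0 lower, with median log2 fold changes of 0.56 and 0.63. Of all genes tested, 10.4% were called higher under TAC in Ctrl hearts and 17.8% in KO hearts. Several of them, such as Myc and Cd44, also answer to other signals. Ccn5, also named Wisp2, went from 5.54 ± 1.47 to 44.6 ± 7.13 CPM under TAC in KO hearts (3.00 ± 0.21, adjusted p = 7.85e-08). Between the genotypes under TAC, 4 of the 89 genes were called and all were higher in KO hearts, beside 2.68% of all genes called in either direction. They were Nkd2, a feedback inhibitor of the pathway, at 6.20 ± 1.18 against 3.59 ± 0.812 CPM (0.78 ± 0.17, adjusted p = 0.0235), Cthrc1, a secreted collagen-associated protein, at 1.50 ± 0.523 against 0.430 ± 0.216 CPM (1.80 ± 0.40, adjusted p = 0.0259), Ccn5 at 44.6 ± 7.13 against 24.5 ± 4.33 CPM (0.86 ± 0.19, adjusted p = 0.0296) and Apcdd1 at 7.53 ± 0.803 against 5.22 ± 0.691 CPM (0.53 ± 0.13, adjusted p = 0.0369). Without Ctrl TAC 2, KO TAC 2 or KO TAC 3 the count was 0, without Ctrl TAC 3 it was 1, and without KO TAC 1 it was 2. In the interaction edgeR called 0 of the 89 and DESeq2 1, and the share of all genes that DESeq2 called there is not given here.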

How the data were processed

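RNA of 16 hearts was sequenced from poly(A)-selected libraries, and per the labels the reads were paired and of 150 bases. What the authors deposited is a single table of raw counts by Ensembl gene and mouse, not normalized. The submitters' processing notes name cutadapt 2.3, FastQC, HISAT2 2.1.0, edgeR 3.26.1 and the build GRCm38, while the counting program, the annotation and the strand setting are not given in the sources used here. Columns were matched to mice by the animal number in the titles, and 0 columns were left unused. Replicates are separate mice, and their numbers follow the accession order and pair nothing.

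Symbols and positions came from GENCODE M21 (GRCm38), which held 99.5% of the identifiers. In edgeR 4.0.16 (R 4.3.3), filterByExpr kept 18275 genes, and totals were scaled by TMM. One quasi-likelihood model (glmQLFit, robust) with a mean per group took in all 16 libraries, 5 contrasts were tested with glmQLFTest (2-sided), and p-values were adjusted by Benjamini-Hochberg over all genes tested, with calls under 0.05. RPKM was the scaled CPM per kilobase of union exon length, and correlations used log2 CPM with a prior count of 2. The members, the Wnt and marker lists and the rules were chosen with earlier results of these data known, and no set was tested. All members are named. Of each Wnt list, the text names the called gene with the smallest adjusted p for TAC in KO hearts (average log2 CPM of 0 or more), and any gene called in KO against Ctrl under TAC. For likeness, the 2 genes of highest r were taken for each member tested. Markers and the antisense partner are named where a result turns on them, and Myc and Cd44 as examples.

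The other settings tried were RLE size factors, DESeq2 1.42.0 (Wald test), a filter of 1 count in any library or of 10 counts in every library, terms for the runs of mouse numbers, fits to only the 8 libraries compared, leave-one-out fits over the 16 libraries, and a fit without Ctrl TAC 2 and KO TAC 4. Intervals and floors cover counting error only.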

Additional observations from a re-analysis of the deposited data

Results flagged for a closer look

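In 76 groups of 4 libraries, formed by the 10 members' CPM and by the shares, sums and ratio per length, the highest or lowest library was compared with the others by Dixon's ratio at the 95% level, and 3 stood apart, where chance gives about 1 in 20. KO TAC 3 stood above the other KO TAC libraries in Sfrp1, at 33.5 CPM against 22.02 to 23.4 CPM, and without it Sfrp1 was called in KO against Ctrl under TAC at a log2 fold change of 0.68 (adjusted p = 0.0176). KO sham 1 stood above the other KO sham libraries in Fzd2, at 2.80 CPM. KO sham 4 stood below the others in the share of Sfrp2 among the sFRP transcripts, at 12%.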

How the results depend on the processing

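The counts of members called under TAC kept within 1.5 times the reported count in all alternatives, with 5 to 7 in Ctrl and 8 to 9 in KO hearts when each library was left out. For KO against Ctrl under TAC (4 reported) the count was 6 with DESeq2, 0 with the run of mouse numbers as a term, 2 in the fit to the 8 libraries compared, 2 without Ctrl TAC 2 and KO TAC 4, and 1 to 5 when each library was left out. DESeq2 called 2 members in the interaction, where edgeR called 0. Of the other Wnt genes, 4 were called in KO against Ctrl under TAC, 8 with DESeq2, 0 with the run of mouse numbers as a term and 0 to 6 when each library was left out, and DESeq2 called 1 in the interaction. Leaving out each library for these genes was added after seeing the data. The shares of all genes that DESeq2 called are not given here, and the cause of these changes was not tested. Some differences between sham groups, all far from a call, changed sign: with the term for mouse numbers that start alike in 4 sham libraries, Sfrp2 was at −0.17, Wif1 at −0.039 and Fzd1 at −0.0021, and with no filter Fzd2 was at −0.0037. With a library left out, Fzd1 ranged from −0.038 to 0.14, Fzd2 from −0.11 to 0.061, Sfrp2 from −0.0007 to 0.26 and Wif1 from −0.086 to 0.23. No paired analysis was possible because the labels give mice their own numbers and no replicate number shared between groups. Sfrp4, Sfrp5 and Dkk2 had few counts, which limits what could be detected for them.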

Other observations

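The lists of markers of other cell types, written from general knowledge, gave these counts. Of all genes tested, 10.4% were called higher and 9.6% lower under TAC in Ctrl hearts, and 17.8% and 16.5% in KO hearts. In KO against Ctrl under TAC, 1.36% were called higher and 1.32% lower. Of 8 macrophage markers, 4 were called higher under TAC in Ctrl hearts, 8 in KO hearts and 0 in KO against Ctrl under TAC, by the edgeR test. Of 8 cardiomyocyte markers, 5 were called lower and 1 higher under TAC in Ctrl hearts, 6 lower in KO hearts and 2 lower in KO against Ctrl TAC hearts. Of 7 endothelial markers 0 were called in any of these 3 comparisons. Of 7 smooth muscle and pericyte markers, 2 were called higher and 1 lower in Ctrl hearts and 3 higher and 1 lower in KO hearts. Of 4 Schwann cell markers, 0 were called in Ctrl hearts and 3 lower in KO hearts, where their sum was 2.78 to 3.76 CPM under TAC against 7.05 to 8.56 CPM in sham libraries. Of 3 markers of valve and endocardium tested, 2 were called higher in KO hearts, and of 3 of epicardium and mesothelium 0 were called in either genotype, with sums of 4.91 to 13.1 CPM in KO TAC and 3.46 to 7.15 CPM in KO sham libraries. The 1 atrial myocyte marker tested was called higher under TAC in Ctrl hearts and not in KO hearts. No adipocyte marker passed the filter.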
